A study of Mus musculus with 4 samples.

Results

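The imprinted Dlk1-Dio3 miRNA cluster was represented by 53 of the 566 mouse miRNA probes of a nanoString nCounter panel. These probes were chosen by name, from 41 miR numbers known from the locus with any letter or arm. The rule uses no measured value, though earlier results of these data were known when it was made. In the gene table of RefSeq for GRCm38.p6, the 53 probes correspond to 43 hairpin genes, which all lie between Dlk1 and Dio3 on chromosome 12 and all on the plus strand. At its lane's own background threshold, 24 of the 53 probes stood above background in the retinal progenitors. In the 3 pools of Müller glia 4, 9 and 11 did so. In no library above background were 29 of the 53 (54.7%), beside 319 of the 566 (56.4%). The progenitor lane also had the lowest threshold, and at a single threshold for all lanes the 4 numbers were 9, 4, 8 and 6.

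The study counted miRNAs in 4 pools of tdTomato-positive cells sorted from mouse retina, with 1 library per group. P2 RPC held retinal progenitor cells of postnatal day 2, labelled in Sox2-CreER mice crossed to the stopf/f-tdTomato reporter, with tamoxifen on days 0 and 1 and 8 retinas pooled. P8 MG, P11 MG and Adult MG held Müller glia, the radial glia of the retina, labelled with Rlbp-CreER and the same reporter. P8 MG received tamoxifen on days 6 and 7 and came from 52 retinas, and P11 MG received it on days 9 and 10 and came from 32. Adult MG received it on 2 consecutive days beyond day 21 and came from 40 retinas. Every dose was 75 mg/kg in corn oil, given into the abdomen, so all 4 groups share the reporter and the drug. One title gives the P11 pool as P11/12, and the series text calls the progenitors adult where the labels of the sample say P2. Cre driver, cell type, age, pool size and assay lane change together between P2 RPC and the glia, and all of these except driver and cell type change together among the glia, so they cannot be told apart. No comparison below has a replicate check, and intervals cover counting error only.

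The Dlk1-Dio3 region carries genes that are read from only 1 parental chromosome. Dlk1, Rtl1 and Dio3 code for proteins and are expressed from the paternal copy, while the maternal copy gives the long noncoding transcripts Meg3, anti-Rtl1, Rian and Mirg and, with them, the miRNAs. The miRNAs are best known from embryo, placenta and brain, where several act in neurons, and they fall into a first part between Meg3 and Rian and a second, denser part named after its end members miR-379 and miR-410.

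The sequences below belong to the 9 probes that stood above the highest lane threshold in P2 RPC, a threshold applied after the data had been seen. Other members discussed below, such as miR-376a, miR-127 and miR-154, are left out to keep the text short. Those shown are RefSeq mature sequences (table build GRCm38.p6), written 5′ to 3′, with the seed, bases 2 to 8, in capitals. The probe names give an arm for miR-434-3p and miR-369-3p alone among the 9. For the others, the files do not give which arm is probed, and each arm that RefSeq lists is printed.
miR-433-3p: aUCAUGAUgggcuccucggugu
miR-433-5p: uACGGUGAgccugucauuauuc
miR-434-3p: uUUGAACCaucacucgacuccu
miR-136-3p: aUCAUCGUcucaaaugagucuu
miR-136-5p: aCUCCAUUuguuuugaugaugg
miR-495-3p: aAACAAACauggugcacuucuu
miR-495-5p: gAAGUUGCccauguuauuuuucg
miR-376c-5p: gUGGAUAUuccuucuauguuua
miR-376b-3p: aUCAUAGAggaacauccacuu
miR-376b-5p: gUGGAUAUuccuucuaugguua
miR-382-3p: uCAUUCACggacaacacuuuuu
miR-382-5p: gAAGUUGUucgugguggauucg
miR-369-3p: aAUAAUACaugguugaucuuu
miR-410-3p: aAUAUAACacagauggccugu
miR-410-5p: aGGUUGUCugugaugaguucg

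Among the arms that RefSeq lists, the members share little seed sequence. RefSeq lists 82 mature arms for the 53 probes, so some listed arms are not probed, and for 4 members without an arm in their name it lists only 1 arm. The 82 arms hold 79 different seeds. Only 3 seeds occur on 2 of these arms: UGGAUAU on miR-376b-5p and miR-376c-5p, AUGUAAC on miR-379-3p and miR-411-3p, and GGUUGUC on miR-410-5p and miR-494-5p. The 5p arms of miR-376b and miR-376c carry the same base at 21 of 22 positions, with the first 18 in 1 shared run. Across all arms, 16 pairs share a run of at least 10 bases. One such pair is miR-495-3p above and miR-543-3p, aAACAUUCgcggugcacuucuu, which share their last 12 bases and 18 of 22 positions. Whether a probe of this panel also counts such a neighbour was not tested.

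The 4 lanes held 583699, 576117, 583673 and 769736 counts in all, here and below from the progenitors through the glia by age, of which 482118, 470304, 484305 and 695390 were on mouse miRNA probes. Background was read from 8 negative control probes, which have no target in the sample, and set to their mean plus 2 SD in each lane. It came to 60.7, 137, 106 and 71.7 raw counts. The same lanes' negative means were 35.8, 70.5, 50.4 and 38.6, and the means over 33 probes for viral miRNAs were 38.6, 70.1, 52.6 and 40.1, so that both kinds of control were highest in P8 MG and lowest in P2 RPC. Of the 33 viral probes, 4, 0, 0 and 2 passed the thresholds. Probes differ in how well they capture their target, so counts are compared between lanes for 1 probe and not between probes.

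The cluster was counted close to background in every library. The median member had 49, 82, 61 and 47 raw counts, beside 48, 85.5, 63 and 48 over all 566 miRNA probes, and the highest count of any member was that of miR-382 in each lane. Divided by the mean of the lane's negative controls, the medians were 1.37, 1.16, 1.21 and 1.22 for the members and 1.34, 1.21, 1.25 and 1.24 for the panel. Above background were 24 members (45.3%) in P2 RPC and 4 (7.55%), 9 (17.0%) and 11 (20.8%) in the glia by age. The panel had 220 (38.9%), 134 (23.7%), 149 (26.3%) and 171 (30.2%) of 566. The members' share was thus above that of the panel in the progenitors and below it in each pool of glia.

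**Figure D1:**
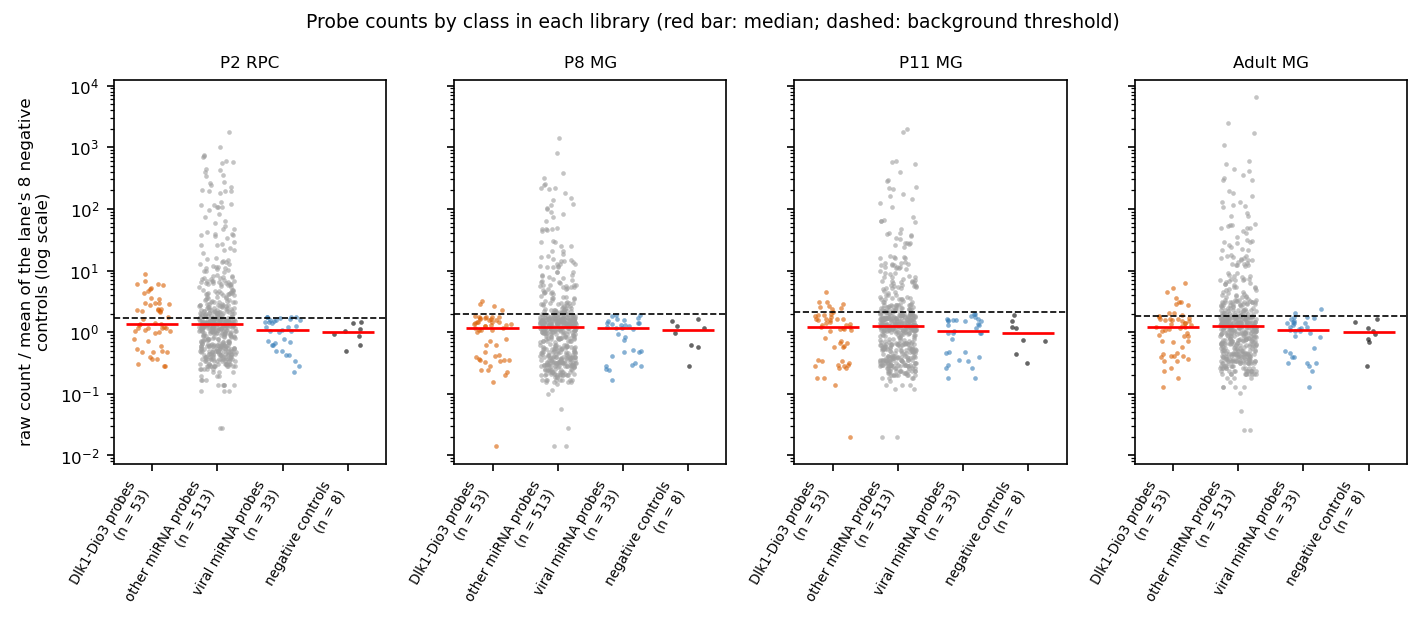
Raw counts divided by the mean of the lane's 8 negative controls (log axis) for the 53 cluster probes, the other 513 mouse miRNA probes, the 33 viral probes and the negative controls, 1 point per probe and 1 panel per library, with red bars at the medians and a dashed line at the background threshold. The cluster probes overlap the control probes in every lane, and their medians lie at 1.37, 1.16, 1.21 and 1.22.

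The order across libraries depended on the threshold, since a count such as 100 is above background in P2 RPC and below it in P8 MG. After scaling between lanes, the 4 thresholds were 54.8, 126.9, 114.6 and 82.3 normalized counts. At the highest of them, applied to all lanes, 9 members (17.0%), 4 (7.55%), 8 (15.1%) and 6 (11.3%) were above it, beside 126 (22.3%), 134 (23.7%), 135 (23.9%) and 123 (21.7%) of the panel. The members' share then lay below that of the panel in all 4 libraries, and P2 RPC exceeded P11 MG by 1 probe. This single threshold was chosen after the data had been seen. At 2 times each lane's own threshold there were 11 members in P2 RPC and 0, 1 and 3 in the glia, beside 134, 82, 88 and 98 of the panel. The members' share was below that of the panel in every library there too.

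As a share of all miRNA counts, the members made up 0.862% in P2 RPC (exact binomial 95% interval 0.836 to 0.889), 0.888% in P8 MG (0.861 to 0.915), 0.703% in P11 MG (0.680 to 0.727) and 0.433% in Adult MG (0.418 to 0.449). The share was highest in P8 MG, the lane with the highest background. The summed counts were 2.19, 1.12, 1.28 and 1.47 times what 53 probes at the mean of the negative controls would give. With that mean subtracted from every miRNA probe and negative results set to 0, the shares were 0.543%, 0.309%, 0.300% and 0.201%. With negative results kept, they were 0.490%, 0.102%, 0.162% and 0.143%. P2 RPC was highest either way, while the order among the glia changed.

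All 24 members that passed the threshold in any library passed it in P2 RPC. Of these, 4 passed in all 4 libraries (7.55% of members, beside 20.7% of the panel) and 12 passed in P2 RPC alone (22.6%, beside 11.1%). The remaining 8 passed in P2 RPC and in some of the glia. No member passed in the glia without passing in P2 RPC, where the threshold was lowest, beside 4.77% of the panel. At the single threshold 3 members did, miR-127 and miR-376a in P11 MG and miR-154 in Adult MG, beside 8.30% of the panel.

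**Figure D2:**
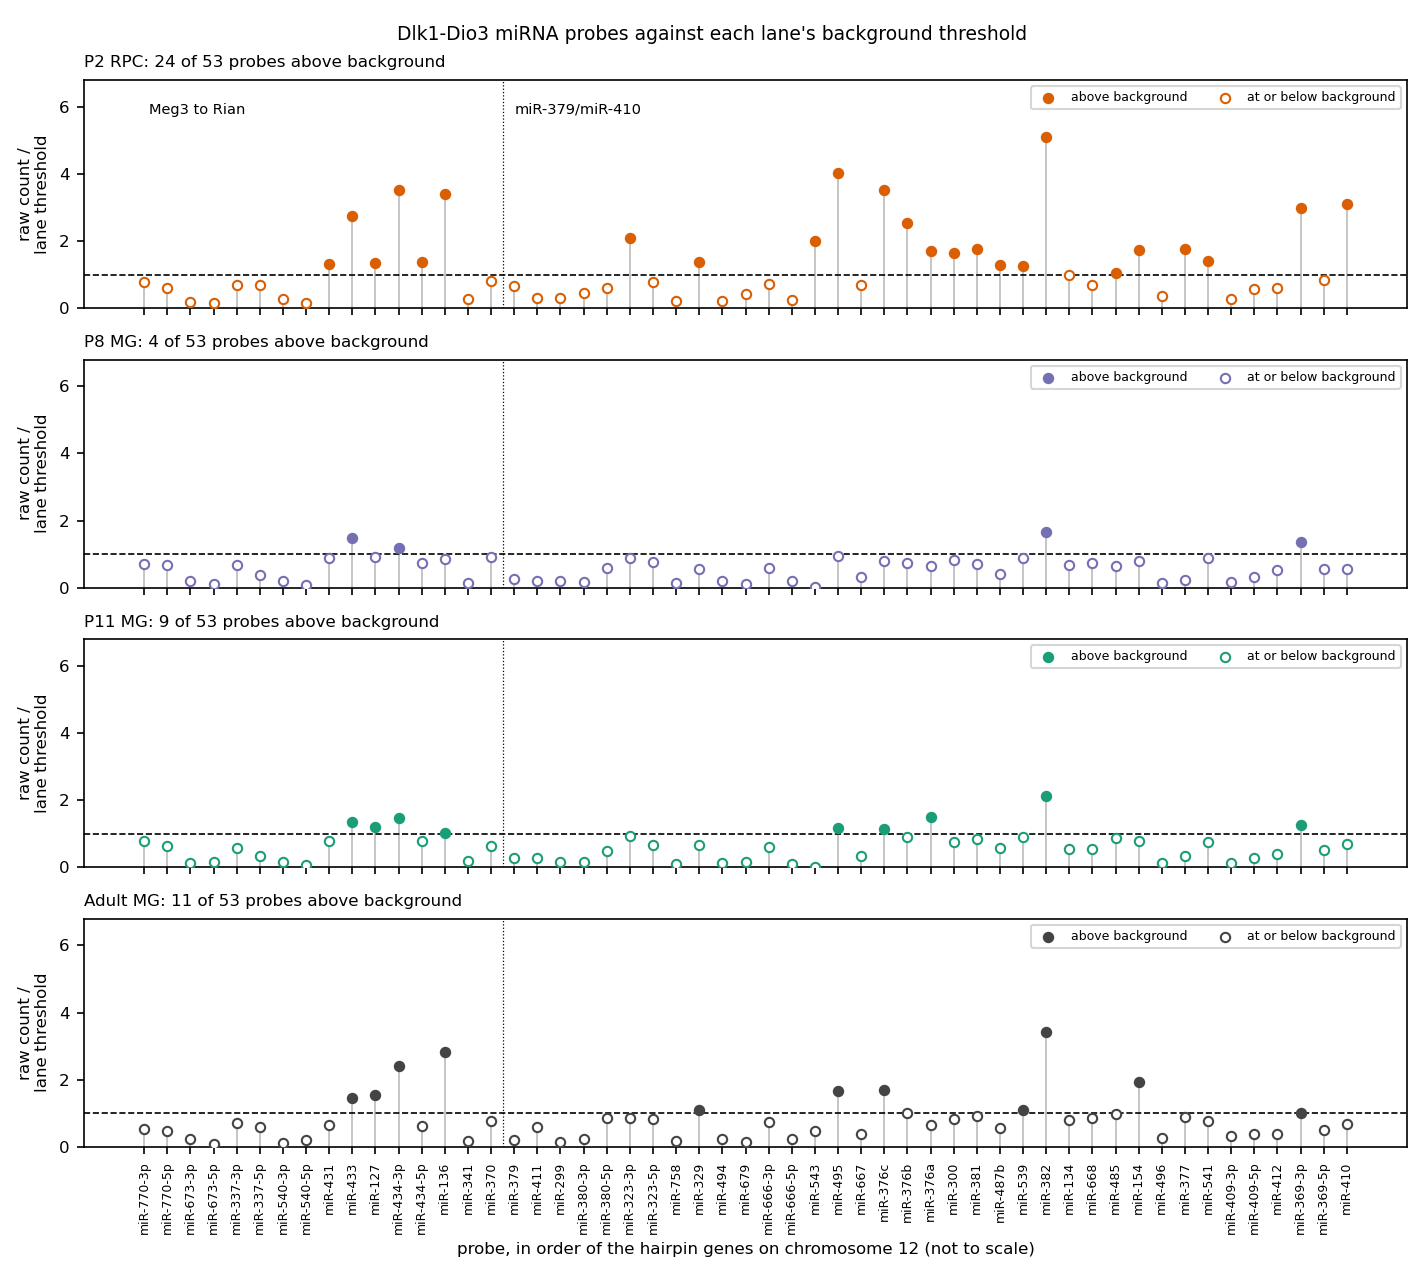
Raw count of each of the 53 probes divided by its lane's background threshold, in the order of the hairpin genes on chromosome 12 and not to scale, with 1 panel per library. Filled points are above background and number 24, 4, 9 and 11, and the dotted line separates the part between Meg3 and Rian from the miR-379/miR-410 part.

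By position, many of the probes above background in P2 RPC were neighbours, while others, such as miR-323-3p and miR-329, stood alone. In the part between Meg3 and Rian, with 16 probes for 11 hairpins, 6 probes were above background in P2 RPC, and these are the neighbours from miR-431 through miR-433, miR-127 and both arms of miR-434 to miR-136. All 6 lie inside the annotated Rtl1 gene, which holds 12 probes of 8 hairpins and whose antisense transcript carries these hairpins. In P8 MG 2 of the 16 were above background, in each older pool of glia 4. The other 10 probes, for both arms of miR-770, miR-673, miR-337 and miR-540 and for miR-341 and miR-370, were at background in all 4 libraries.

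In the miR-379/miR-410 part, with 37 probes for 32 hairpins, 18 probes were above background in P2 RPC and 2, 5 and 7 in the glia by age. The longest unbroken run in P2 RPC had 8 probes, from miR-376c through miR-376b, miR-376a, miR-300, miR-381, miR-487b and miR-539 to miR-382. Elsewhere the longest run was 1 probe in P8 MG and 3 in both older pools of glia, in each case miR-433, miR-127 and miR-434-3p. The probes at the first end of this part, miR-379, miR-411, miR-299 and both arms of miR-380, were at background in every library. The panel covers only part of the annotated hairpins, so neighbours here are neighbours among the members.

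Among the 6 probes inside Rtl1, miR-434-3p was above background in every library. It had 214 raw counts in P2 RPC and 164, 154 and 172 in the glia by age, so that the progenitors were highest before scaling. The probe for the other arm, miR-434-5p, had 83, 102, 81 and 45 counts and passed in P2 RPC alone. Over the 10 hairpins with a probe for each arm, 3 of the 3p probes and 1 of the 5p probes passed in P2 RPC, and 2 and 0 passed in each pool of glia.

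miR-433 was above background in every library and had 167, 203, 143 and 105 counts, the highest in P8 MG and the lowest in Adult MG. miR-136 and miR-127 are fully complementary to the Rtl1 transcript and direct its cleavage. miR-136 had 207 counts in P2 RPC and 116, 108 and 203 in the glia by age, above background in all but P8 MG and about as high in Adult MG as in P2 RPC. miR-127 had 82, 124, 127 and 110 counts, below its lane's threshold in P8 MG and higher in P11 MG and Adult MG than in P2 RPC. miR-431 had 79, 121, 82 and 47 counts and passed in P2 RPC alone, though its count was highest in P8 MG.

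In the miR-379/miR-410 part, miR-382 had the highest count of any member in each lane. It was counted 310 times in P2 RPC and 227, 225 and 246 times in the glia by age, above background throughout. miR-369-3p, known from human cells to act through AU-rich elements of mRNAs, was also above background throughout, with 181, 187, 134 and 72 counts. The last value is just over the threshold of 71.7, while miR-376b, at 71 in the same library, is just under it. miR-369-5p had 50, 77, 55 and 35 counts and was at background in all 4.

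miR-495 had 244, 128, 125 and 119 counts and miR-376c had 213, 110, 121 and 121. Both were above background in every library but P8 MG and had their highest count in P2 RPC. miR-376a was the only member above background in P2 RPC and P11 MG alone, with 104, 90, 157 and 46 counts. The miR-376 hairpins are known for A-to-I editing, which changes the bases of their seeds, and the counts do not separate edited from unedited forms.

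Besides P2 RPC, 3 members were above background in Adult MG alone. miR-154 had 105, 109, 82 and 138 counts, the highest in Adult MG. miR-329 had 84, 77, 70 and 79, and miR-539 had 76, 123, 95 and 79, so that both lay near the thresholds in P2 RPC and Adult MG. The raw count of miR-539 was highest in P8 MG, where the threshold of 137 was not reached.

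The 12 members above background in P2 RPC alone were miR-410, miR-376b, miR-323-3p, miR-543, miR-381, miR-377, miR-300, miR-541, miR-434-5p, miR-431, miR-487b and miR-485. miR-410, the last hairpin among the members in gene order, had 188 counts in P2 RPC and 77, 73 and 48 in the glia. miR-376b had 153, 102, 96 and 71, and miR-323-3p had 126, 120, 99 and 62. The count of miR-410 in P2 RPC was the highest of these 12, and its counts in the glia were 1.09, 1.45 and 1.24 times the mean of the negative controls.

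miR-543 had 122 counts in P2 RPC, 1 each in P8 MG and P11 MG, and 34 in the adult glia. A count of 1 is far below the mean of the negative controls in those lanes, and 2, 3, 3 and 2 of the 566 miRNA probes have it in the 4 lanes. The files do not say whether 1 is a floor, so the values of miR-543 in P8 MG and P11 MG are read as background and not as a level. miR-377 had 106, 30, 34 and 64 counts, likewise below the mean of the negative controls in P8 MG and P11 MG.

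The other members of this set lay closer to the thresholds. miR-381 had 107, 98, 88 and 65 counts, miR-300 had 99, 115, 79 and 60, and miR-541 had 85, 123, 79 and 54. miR-487b had 78, 55, 59 and 40, and miR-485 had 64, 88, 93 and 69, the lowest count in P2 RPC of any member above background. miR-134, known from neurons for limiting dendritic spine size, was the highest below it, with 59 counts in P2 RPC and 91, 56 and 58 in the glia, against thresholds of 60.7, 137, 106 and 71.7.

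**Figure D3:**
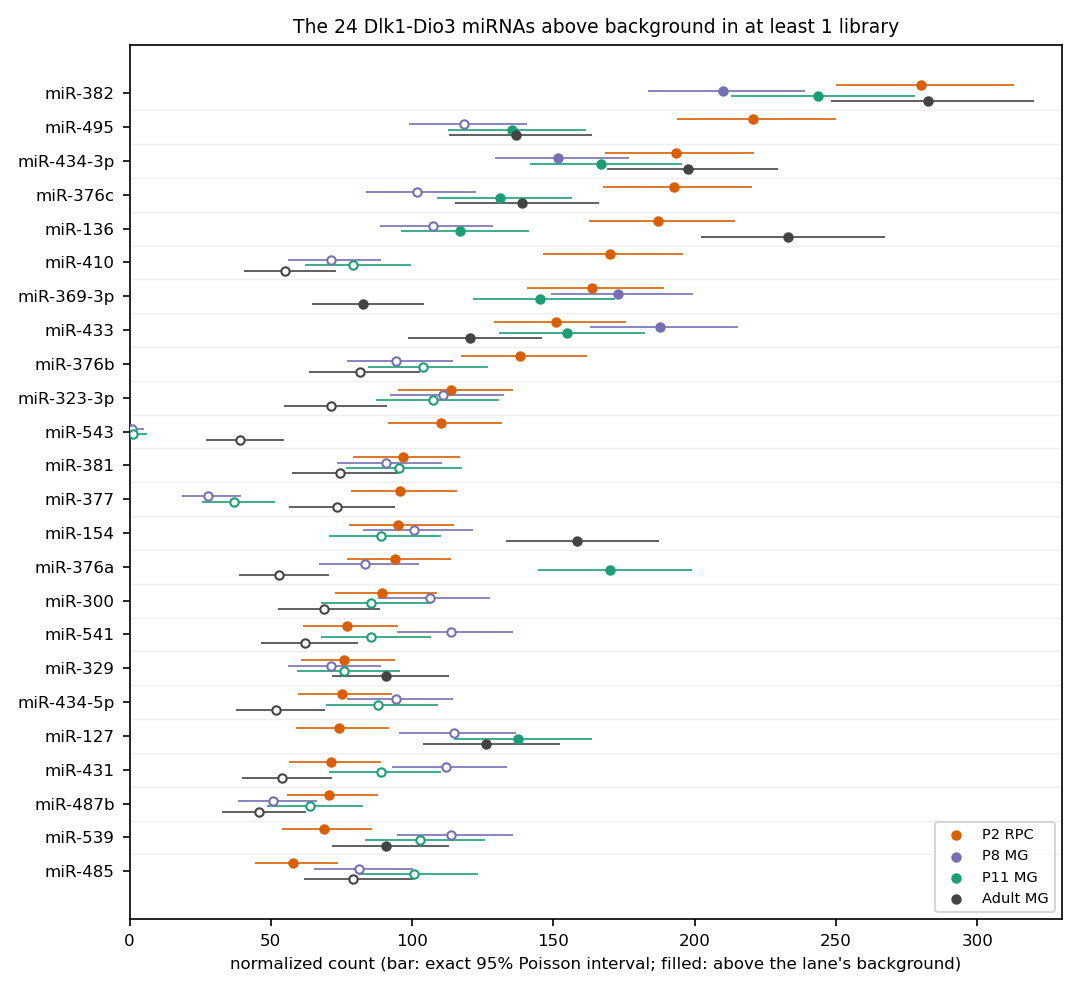
Normalized counts of the 24 members above background in at least 1 library, 1 point per library with its exact 95% Poisson interval as a bar (counting error only), filled where above the lane's background and open where not. miR-382 lies between 209.9 and 282.5 normalized counts, and most other members have their glial values at or below background.

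Of the 29 members at background in all 4 lanes, 25 had a higher raw count in P8 MG than in P2 RPC. The same was true of 30 of the 33 viral probes, 7 of the 8 negative controls and 409 of all 566 miRNA probes. From P2 RPC to P11 MG, 15 of the 29 were higher and 14 lower, beside 26 of the 33 viral probes and 7 of the 8 negative controls higher. From P2 RPC to Adult MG, 13 of the 29, 15 of the 33 and 5 of the 8 were higher. Members at background thus went the same way as most probes without a mouse target from P2 RPC to P8 MG, and less clearly in the other lanes.

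Each glial library was next compared with P2 RPC, asking which cluster miRNAs differ between progenitors and glia. All 3 comparisons share the P2 RPC library. A call needed a member to pass the threshold in the library where it was higher, to differ at least 2-fold in normalized counts, and to have an exact conditional binomial 95% interval that excludes equality. Where 1 of the libraries was at background, its threshold took the place of its count, and the fold is then a bound, itself subject to counting error. Other scalings moved the log2 ratios over P2 RPC by -1.03 to 0.44. Of the members measured in both libraries, the direction turned under at least 1 of 7 other scalings for 2 of 4 in P8 MG, 5 of 9 in P11 MG and 8 of 11 in Adult MG.

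In P8 MG against P2 RPC, 0 of 53 members were called higher and 0 lower, beside 5.12% and 3.71% of the 566 probes. Only 1 member had a P2 RPC count high enough, given the threshold of P8 MG, for a 2-fold lower call to be possible. A higher call needed a member above background in P8 MG, which held for 4. Of the 53 members, 4 were measured in both libraries, 20 in 1 of them and 29 in neither. Among the 4, miR-382 was 1.34-fold lower in P8 MG (interval 1.12 to 1.59) and miR-433 was 1.24-fold higher (1.01 to 1.54), a direction that turned with housekeeping mRNAs or TMM factors. miR-495 was at least 1.74-fold lower, miR-376c at least 1.52-fold and miR-136 at least 1.47-fold. The median log2 ratio was 0.33 over the 53 members and 0.58 over the panel, with counts at background included as counted. With lanes scaled on the 4 housekeeping mRNAs in place of the 100 most abundant miRNA probes, 7 members (13.2%) were called lower in P8 MG and 0 higher, and 14.8% of the panel was called lower.

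In P11 MG against P2 RPC, 0 members were called higher and 0 lower, beside 7.24% and 4.24% of the panel. Again 1 member could have shown a 2-fold lower call, and 9 a higher one. In both libraries 9 members were measured. miR-127 was 1.86-fold higher in P11 MG (1.40 to 2.48) and miR-376a 1.81-fold higher (1.40 to 2.34), the latter turned with housekeeping mRNAs. miR-495 was 1.63-fold lower (1.31 to 2.04), miR-136 1.60-fold lower (1.26 to 2.04) and miR-376c 1.47-fold lower (1.17 to 1.85). The measured members thus lay on both sides of equality, and the median log2 ratio was 0.03 over the members and 0.47 over the panel. Scaled on the housekeeping mRNAs, 8 members (15.1%) were called lower and 0 higher, and 12.0% of the panel was called lower.

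In Adult MG against P2 RPC, 0 members were called higher and 1 lower, beside 8.83% and 7.07% of the panel. The called member was miR-410, with 170 normalized counts in P2 RPC and 55.1, at background, in Adult MG. That makes it at least 2.07-fold lower, a bound with an interval of 1.56 to 2.74. A 2-fold lower call was possible for 6 of the 53 members, and a higher one for 8. miR-369-3p was 1.98-fold lower (1.5 to 2.64), miR-495 1.61-fold lower (1.29 to 2.03) and miR-376c 1.39-fold lower (1.10 to 1.75). miR-127 was 1.70-fold higher (1.27 to 2.30) and miR-154 1.67-fold higher (1.29 to 2.17), both turned with total counts, while miR-382 and miR-434-3p stood at 1.01-fold and 1.02-fold. The median log2 ratio was 0.01 over the members and 0.27 over the panel. The call of miR-410 was not made under 7 of 16 other settings, and with lanes scaled on total miRNA counts 11 members (20.8%) were called lower, beside 15.5% of the panel.

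Among the glia, the comparisons ask whether the cluster differs with age, and they share libraries with each other. In P11 MG against P8 MG, 0 members were called in either direction, beside 0.707% higher and 1.77% lower of the panel. For 0 members was a 2-fold call possible in either direction, since no P8 MG or P11 MG count reached 2 times the other lane's threshold. Of the 53 members 44 were at background in both libraries.

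In Adult MG against P11 MG, 0 members were called higher and 1 lower, beside 4.06% and 3.89% of the panel. Given the thresholds, a 2-fold higher call was possible for only 2 of the 53 members and a lower one for 3. The called member was miR-376a, with 170 normalized counts in P11 MG and 52.8, at background, in Adult MG. That makes it at least 2.07-fold lower, a bound with an interval of 1.55 to 2.76. miR-136 was 1.99-fold higher in Adult MG (1.57 to 2.54), just under the threshold of 2, and miR-369-3p was 1.76-fold lower (1.31 to 2.37). miR-154 was at least 1.38-fold higher. The call of miR-376a was not made under 9 of 16 other settings, and miR-136 was called under 9 of the 16.

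In Adult MG against P8 MG, 0 members were called higher and 1 lower, beside 4.77% and 5.48% of the panel. Here a 2-fold higher call was possible for only 1 of the 53 members and a lower one for 3. miR-369-3p was 2.09-fold lower in Adult MG (1.59 to 2.79), at 173 normalized counts in P8 MG and 82.7 in Adult MG. miR-433 was 1.56-fold lower (1.22 to 1.99), and miR-136 was at least 1.84-fold higher. The call of miR-369-3p was not made under 9 of 16 other settings.

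Because most members lie near background, their raw ratios between lanes were also set beside those of the 41 viral and negative probes, without scaling or a threshold. These ratios still carry each lane's yield, and the controls follow background alone, with a median ratio of 1.73 in P8 MG over P2 RPC. A probe with signal that did not change can therefore lie below the controls, and the counts are given as a description. From P2 RPC to P8 MG the control ratios ran from 0.773 to 3.50. Of the members, 11 (20.8%) had a lower ratio than every control and 0 a higher one, beside 15.2% and 2.30% of the panel. The 11 were miR-136, miR-376b, miR-376c, miR-377, miR-382, miR-410, miR-434-3p, miR-487b, miR-495, miR-543 and miR-679, of which miR-679 was at background in both lanes and miR-543 has the doubtful count of 1 in P8 MG.

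From P2 RPC to P11 MG the control ratios ran from 0.464 to 2.05, and 3 members, miR-377, miR-410 and miR-543, lay below all of them and 0 above, beside 7.77% and 9.89% of the panel. The count of 1 in P11 MG leaves the ratio of miR-543 as doubtful as in P8 MG. From P2 RPC to Adult MG they ran from 0.500 to 2.39, and 11 members lay below and 0 above, beside 14.7% and 8.13%. These 11 were miR-410, miR-495, miR-376b, miR-376a, miR-369-3p, miR-323-3p and miR-543, and 4 probes at background in both lanes, miR-299, miR-379, miR-540-3p and miR-679. miR-410 had raw ratios of 0.410, 0.388 and 0.255 in P8 MG, P11 MG and Adult MG over P2 RPC. No member's ratio over P2 RPC exceeded that of every control in any of these 3 comparisons, a pattern that rests on 1 P2 RPC library throughout.

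From P11 MG to Adult MG the control ratios ran from 0.423 to 1.62, and 2 members lay below and 7 above, beside 7.07% and 9.36% of the panel. Of the 7, miR-136 at a ratio of 1.88 and miR-154 at 1.68 were above background in Adult MG, and the other 5 were at background in both lanes. Of the 2 below, miR-376a had a ratio of 0.293 and miR-673-5p was at background in both lanes. From P8 MG to Adult MG the controls ran from 0.257 to 1.24, with 0 members below and 6 above, beside 4.24% and 13.3%, again with miR-136 and miR-154. From P8 MG to P11 MG they ran from 0.361 to 1.15, with 1 member below, miR-666-5p at background, and miR-376a above at 1.74, beside 1.77% and 11.3%.

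**Figure D4:**
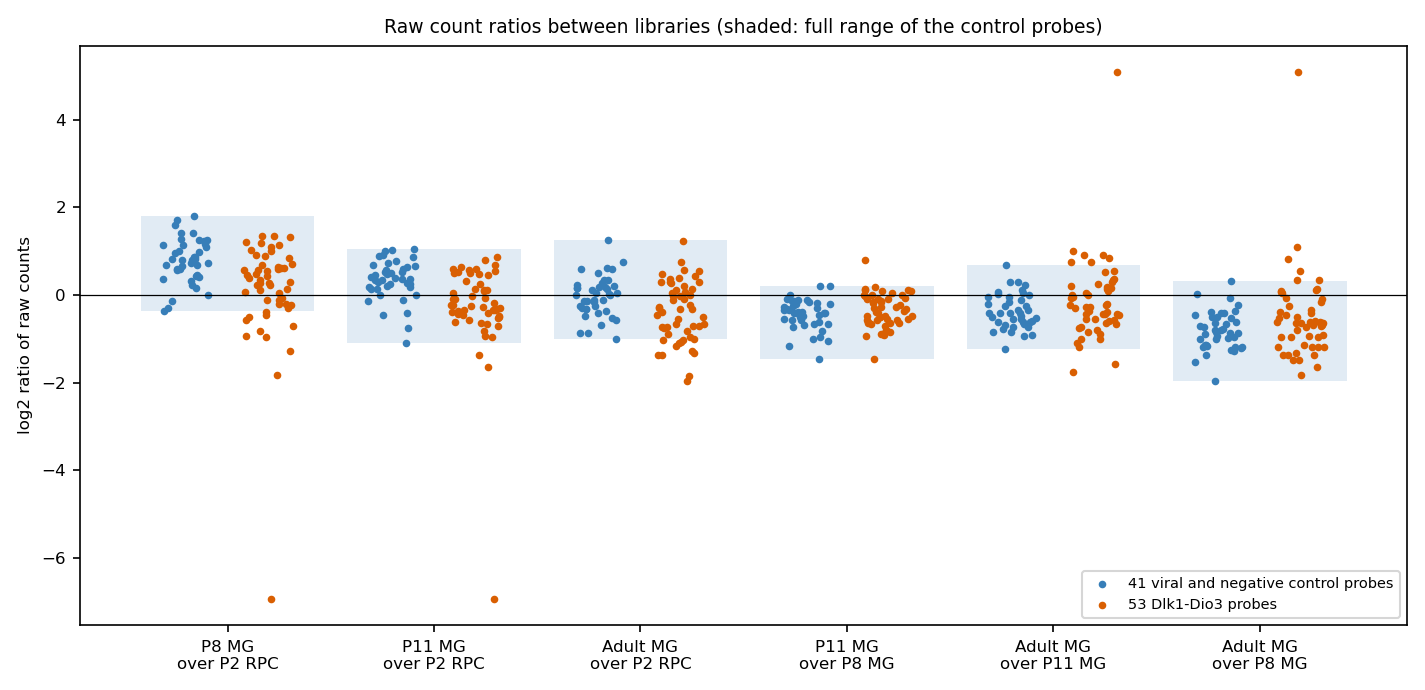
Log2 ratios of raw counts between lanes for the 53 members and the 41 viral and negative control probes, 1 point per probe, in all 6 comparisons, with the full range of the controls shaded and the far points in 4 of them being miR-543. On the linear scale the control ratios run from 0.773 to 3.50 in P8 MG over P2 RPC, and 11 members lie below them and 0 above.

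The panel also holds 13 probes whose hairpins lie between Dlk1 and Dio3 but whose numbers were not used. Of these, 12 were at background in all 4 libraries, including miR-432, whose hairpin lies among those inside Rtl1. The probe for miR-1906, for which RefSeq names more than 1 hairpin gene, had 109, 150, 132 and 141 raw counts, was above background in every library and was not called in any comparison.

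Summed counts of marker miRNAs for neurons, photoreceptors and proliferating progenitors were highest in P2 RPC, which was itself sorted for progenitors. Of 5 neuronal miRNAs (miR-124, miR-128, miR-129-3p, miR-138 and miR-218), 5 were above background in P2 RPC and 2 in each glial library, with summed normalized counts of 7035, 3593, 1886 and 1912. Most of each sum was miR-124, at 6341, 2883, 1322 and 1391, while miR-129-3p was lowest in P2 RPC, at 136, 460, 358 and 359. Of 3 photoreceptor miRNAs (miR-96, miR-182 and miR-183), 3, 3, 2 and 2 were above background, with sums of 20274, 5573, 1373 and 779. Of 5 miRNAs of proliferating progenitors (miR-25, miR-17 with miR-106a, miR-20a, miR-19b and miR-92a), 5, 4, 4 and 4 were, with sums of 53664, 17297, 7608 and 3223. The number of members above background in the glia was 4, 9 and 11 by age, and 4, 8 and 6 at the single threshold. These are numbers of probes, the former under thresholds that differ by lane, and were not tested against the sums.

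The other lists differed among themselves. The 4 miRNAs of Müller glia and progenitors (miR-204, miR-9, miR-125b-5p and miR-99a) were above background in every library, with sums of 86653, 174389, 249506 and 487863. Of 5 miRNAs of microglia and white blood cells, 1, 4, 4 and 4 were above background, with sums of 296, 1131, 1311 and 682, the lowest in P2 RPC. Of 7 miRNAs of mural and mesenchymal cells, 2, 1, 1 and 1 were, with sums of 472, 698, 644 and 1030, and miR-143 was at background in all 4. Most of the Adult MG sum was miR-140, at 264, 294, 363 and 748 over the 4 libraries. miR-199a-3p, above background in P2 RPC alone, had 69.6, 127, 58.5 and 33.3. Of 2 endothelial miRNAs, miR-126-3p was above background throughout, and the sums were 334, 460, 419 and 269. Both red blood cell miRNAs were at background in every library, with sums of 22.6, 51.8, 56.3 and 42.5. Of 3 muscle miRNAs, 2 were above background in P2 RPC and 0 in the glia, with sums of 192, 285, 238 and 222. The part of any of these cells in the members' values was not tested, and in pooled cells a smaller number of expressing cells and less miRNA per cell cannot be told apart.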

How the data were processed

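Mature miRNAs were tagged by ligation, hybridised to barcoded probes and counted in 4 libraries, 1 per group, grouped by their titles. The deposited raw table holds whole-number counts of each probe, and the file headers record no step before them. The table processed by the authors holds a score, found here to be the raw count minus a lane background (73.1, 171, 133 and 88.2, the negative controls' mean plus 3 SD), multiplied by a lane factor (1.03, 0.771, 0.989 and 1.34), with a floor of 1, to within 1 unit for 100% of miRNA probes. In it 23, 3, 4 and 8 members stand above 1, beside 190, 109, 116 and 142 of the panel. Software is not given in the sources used here.

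Results start from the raw counts. Lanes were scaled by the geometric mean of the 6 positive controls and then of the 100 miRNA probes with the highest counts, which gave factors of 0.904, 0.925, 1.08 and 1.15. The threshold was the mean plus 2 SD of 8 negative controls. Shares have exact (Clopper-Pearson) 95% binomial intervals. Every member above background in at least 1 library was named, 24 in all, and the other 29 were summarised. Sequences were printed for 9 of the 24, and miR-543-3p, to keep the text short. Of the 53 members, 20 matched a RefSeq mature miRNA by name with its arm, 29 matched a hairpin with both arms and 4 one with 1 arm. RefSeq's gene table was used for names and gene order only. Members and lists were chosen with earlier results of these data known.

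Alternatives were 7 other scalings, among them edgeR's TMM factors, other thresholds, no filter, folds of 1.5 and 3, subtraction of the negative mean, and the authors' score table. Calls with the score table needed a score above its floor in the higher library and a 2-fold ratio, without an interval. The ratio and call steps were tested on simulated counts well above background with equal lane scaling, which does not cover members near background. Python 3.11.15, numpy 2.4.6, pandas 2.3.3, scipy 1.17.1, matplotlib 3.10.9, R 4.3.3 and edgeR 4.0.16 were used.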

Additional observations from a re-analysis of the deposited data

How the results depend on the processing

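Members above background were 9 in P2 RPC and 6 in Adult MG at 1 threshold for all lanes, chosen after seeing the data, 13 in P8 MG above the highest negative control, and 5 in P11 MG with 3 SD in place of 2 over the negative mean. In that order these were 17.0%, 11.3%, 24.5% and 9.43% of members, beside 22.3%, 21.7%, 32.3% and 20.7% of the panel. The members' share became 0.543%, 0.309%, 0.300% and 0.201% with the negative mean subtracted and negative results set to 0. It was 0.490%, 0.102%, 0.162% and 0.143% with negative results kept, and 0.680%, 0.166%, 0.267% and 0.208% with only the members above background.

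The counts of calls over P2 RPC that follow are set against the panel's shares after them, for part of the settings in Adult MG. For the comparisons among the glia, the panel's shares are given only where the members' share was not below them. Members called lower in P8 MG against P2 RPC numbered 1 (positive controls), 7 (housekeeping mRNAs), 3 (TMM), 3 (no filter), 2 (fold of 1.5), 4 (negative mean subtracted) and 23 (authors' score), in place of 0, and those called higher 1 (highest negative control) and 9 (no filter). The panel's shares at these settings were 4.95%, 14.8%, 7.24%, 5.83%, 6.54%, 7.07% and 24.6% lower, and 7.95% and 25.6% higher. In P11 MG against P2 RPC, the same settings gave 2, 8, 3, 3, 2, 4 and 22 lower in place of 0, and 2 were called higher with 50 probes for scaling, no filter or a fold of 1.5. There the panel's shares were 7.07%, 12.0%, 7.95%, 6.36%, 7.42%, 7.07% and 22.4% lower, and 9.54%, 19.6% and 10.4% higher. In Adult MG against P2 RPC, in place of 1, the number lower was 11 (total counts), 2 (positive controls), 4 (housekeeping mRNAs or a fold of 1.5), 3 (TMM or no filter), 5 (negative mean subtracted) and 18 (authors' score). It was 0 with 50 probes, ligation controls, median of ratios, 3 SD, the viral threshold, a fold of 3 or 1 threshold. Higher there were 2 with 50 probes, ligation controls, no filter, a fold of 1.5 or the authors' score. The panel's shares higher at these 5 settings were 10.8%, 13.8%, 14.3%, 13.6% and 10.2%. Its shares lower were 15.5% (total counts), 7.42% (positive controls), 10.8% (housekeeping mRNAs), 8.48% (TMM) and 9.89% (no filter).

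In P11 MG against P8 MG, no filter gave 1 higher and 1 lower and the authors' score 3 and 2, in place of 0. In Adult MG against P11 MG, 1 was higher with 50 probes, positive controls, housekeeping mRNAs, ligation controls, TMM, median of ratios, no filter, a fold of 1.5 or subtraction, and 8 with the authors' score. Lower there were 2 (total counts, no filter, fold of 1.5, subtraction) or 0 (positive controls, housekeeping mRNAs, ligation controls, TMM, median of ratios, 3 SD, the viral threshold, a fold of 3, 1 threshold), in place of 1. In Adult MG against P8 MG, higher were 2 (housekeeping mRNAs), 1 (ligation controls, TMM, median of ratios, highest negative control, fold of 1.5, subtraction), 3 (no filter) and 7 (authors' score). Lower there were 2 (total counts, fold of 1.5), 7 (no filter) or 0 (50 probes, housekeeping mRNAs, ligation controls, TMM, median of ratios, 3 SD, the viral threshold, a fold of 3, 1 threshold), in place of 1. The log2 ratios of the 3 called members (miR-410, miR-376a and miR-369-3p) did not reverse under the settings run, in the comparisons where they were called. Many other members did not turn either. Of the members measured in both libraries, 2 of 4 in P8 MG, 4 of 9 in P11 MG and 3 of 11 in Adult MG over P2 RPC never turned with the scaling. The cause of each change was not tested.

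The members' share called was below the panel's at each setting above, with these exceptions. With the authors' score, lower over P2 RPC were 43.4%, 41.5% and 34.0% of members beside 24.6%, 22.4% and 19.4% of the panel, and higher were 5.66% beside 5.48% (P11 MG against P8 MG) and 15.1% beside 13.6% (Adult MG against P11 MG). These score calls are unlike the others, since they need no interval and take the floor as a value. The background taken off in the score was also unequal, at 73.1 in P2 RPC and 171, 133 and 88.2 in the glia by age. With the negative mean subtracted, lower over P2 RPC were 7.55%, 7.55% and 9.43% beside 7.07%, 7.07% and 9.36%. The others were 15.1% beside 12.0% (P11 MG over P2 RPC, housekeeping mRNAs), 20.8% beside 15.5% (Adult MG over P2 RPC, total counts) and 13.2% beside 12.7% (Adult MG over P8 MG, no filter), all lower.

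Against the main scaling, the others moved all log2 ratios over P2 RPC by -1.03 (P8 MG, housekeeping mRNAs) to 0.44 (Adult MG, ligation controls). At these lane backgrounds, 29 members (54.7%) have no measured level in any library, beside 56.4% of the panel. No paired analysis was possible because each group has 1 library, and no library was left out for the same reason.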
